A study of Mus musculus with 72 samples.

Results

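The nuclear pore complex is the large protein channel through which proteins and RNA pass between the nucleus and the cytoplasm, and its subunits are called nucleoporins. Most nucleoporins are soluble proteins that are made on free ribosomes and assemble into the pore. A few, such as Nup210, cross the nuclear envelope and are made at the endoplasmic reticulum (ER). Cargo passes the channel bound to transport receptors, namely the importins (Ipo and Kpn genes) and transportins (Tnpo) for import and the exportins (Xpo) for export, and the GTPase Ran sets their direction.

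The mRNAs of 43 such genes were followed in mouse embryonic stem cells of the line E14TG2a, grown with 2 kinase inhibitors, LIF and serum. A gene was a member when it was protein-coding, when its symbol began with Nup and a digit, Ipo and a digit, Kpna, Kpnb, Xpo or Tnpo, and when it had a mean of at least 400 T positions read in its exons in whole-cell libraries. There were 21 nucleoporins and 22 transport receptors among 12793 protein-coding genes with this T count. Of 44 genes with matching symbols, Kpna7 was below the minimum, with a mean T count of 49.8. Nup58 and Nup42 carry the older symbols Nupl1 and Nupl2 in the annotation, so the symbol rule did not take them, and they are among 22 further pore, receptor and Ran genes reported as a comparison list.

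Separately passaged cultures were given 4-thiouridine (4sU), a uridine analog that enters new RNA and, once alkylated, gives a C where a T would be read (T2C). Per the labels, 4sU was given at 500 µM for 15, 20 and 30 min (replicates 1 and 2) or 20 and 40 min (replicates 3 and 4), and at 100 µM for 60 and 120 min (replicates 3 to 6). Each culture was split by stepwise detergent extraction, with cycloheximide in the buffers, into a digitonin-soluble cytosol, a membrane fraction and a nuclear pellet, beside an aliquot of whole cells, and poly(A) RNA was sequenced from each. All cultures were of this 1 cell line and all libraries used here were labeled. The share of new RNA of a gene is its T2C count divided by its T count and by the conversion rate of the library, so that it runs from near 0 to about 1, and no background was subtracted from it.

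Of 72 libraries, 64 entered the tests between fractions and of shares, and the 8 of 120 min in replicates 3 and 4 were set aside from these. The paper excluded samples kept in the higher 4sU dose beyond 60 min, whereas the labels give these 8 the lower dose. The tests of whole-cell levels were fitted on all 18 whole-cell libraries. Those set aside thus entered the scaling, gene filter and estimate of spread of that fit, but not the compared groups. The written methods and the labels differ on the 4sU dose given to the pair of replicates 3 and 4 for 60 min. The conversion rate at 60 min was 5.83 to 8.29% in replicates 3 and 4 and 2.38 to 3.99% in replicates 5 and 6. Reads counted on genes came to 13185351 to 52975732 in a library (median 21494524). The pluripotency genes Pou5f1 and Nanog were high in whole cells (1253 and 771 TPM, a read count per exon length scaled to the same total in each library). By contrast, 4 of 5 fibroblast markers were at 0.21 TPM or below, Thy1 was at 5.32 TPM, and the 6 genes of differentiating cells were at 2.25 TPM or below. The ER genes Hspa5 and Calr were higher in the membrane fraction than in the cytosol, by 5.24 and 4.57 on the log2 scale, and the nuclear RNAs Kcnq1ot1 and Malat1 were higher in the nucleus than in the cytosol, by 5.04 and 2.28. Levels of the other pluripotency and fraction-check genes chosen, the cytosolic Gapdh, Tubb5 and Actb among them, are not given here. In replicate 6 the whole-cell libraries stood against their labels: the median share of new RNA over all genes was 0.374 at 60 min and 0.175 at 120 min, whereas in replicate 5 it was 0.220 and 0.388. Values without replicate 6 are therefore also given for the members' whole-cell relative share (counts and median) and their median change from 60 to 120 min. Other whole-cell values include this replicate.

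A pair of members had T counts out of proportion to their reads, which makes their shares and levels uncertain. Over 10435 genes the T count per read had a median of 30.2, with 5th and 95th percentiles of 20.0 and 42.1. Nup210l, a paralog of Nup210, had 252 T per read at only 34.8 reads per whole-cell library. Nup35 had 60.4 T per read and overlaps Dusp19 on the same strand.

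The start of the coding sequence is shown for 4 members, because a protein reaches the ER through a hydrophobic stretch that is often at its start, and codons with T in the second position (NTN, read on the coding strand only) encode hydrophobic residues. The 90 coding bases, or 30 codons, are from the GRCm38 genome with the GENCODE M21 annotation, with NTN codons in capitals. Each lies within 1 exon except that of Kpnb1, which spans 2. Nup210 is the transmembrane nucleoporin at chr6:91116695-91116784 on the minus strand, Nup155 is of the inner ring at chr15:8109446-8109535 on the plus strand, Nup62 is of the central channel at chr7:44828563-44828652 on the plus strand, and Kpnb1 is importin beta at chr11:97187398-97187585 on the minus strand.
Nup210: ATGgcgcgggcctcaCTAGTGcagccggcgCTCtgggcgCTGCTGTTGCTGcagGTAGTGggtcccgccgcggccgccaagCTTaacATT
Nup155: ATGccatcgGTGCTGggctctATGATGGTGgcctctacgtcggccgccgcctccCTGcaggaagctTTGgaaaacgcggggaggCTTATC
Nup62: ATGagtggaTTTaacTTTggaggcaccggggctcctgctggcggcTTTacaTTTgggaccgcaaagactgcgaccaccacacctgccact
Kpnb1: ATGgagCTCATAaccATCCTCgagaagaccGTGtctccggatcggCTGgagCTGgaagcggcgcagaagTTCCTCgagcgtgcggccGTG

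Nup210 had 12 NTN codons among its first 30, with up to 4 in a row. Nup155 had 10 (up to 3 in a row), Nup62 had 5, none next to another, and Kpnb1 had 11 (up to 2 in a row), and the median of 21515 genes was 9. Since 23.2% of these genes had at least 12, the count alone did not set Nup210 apart. The transmembrane nucleoporin Ndc1, on the comparison list, held 16 NTN codons in its densest stretch of 21 codons at chr4:107371288-107371350 on the plus strand, a density that 5.16% of genes reached, while Nup210 reached 12 and the median gene 11. Density did not mark every membrane protein of the pore, since Pom121 reached 9 (89.8% of genes had at least as many) and had 2 NTN codons among its first 30. Nup210l had 15 among its first 30, a count that 6.23% of genes reached.
Ndc1: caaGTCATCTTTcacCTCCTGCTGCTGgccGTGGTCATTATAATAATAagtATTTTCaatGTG

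Levels are given per exon length, in TPM, as the mean ± SD over 6 replicates. The median of 42 members stood at 55.3 TPM in whole cells, against 16.8 TPM for the median of 11814 protein-coding genes. Both medians are over genes with a mean of at least 1.5 TPM in the nucleus, cytosol or membrane fraction, which left out Nup210l. Members were also chosen by a minimum T count, so a higher median follows in part from the rule. The highest were receptors: Kpnb1, the importin beta that carries most classical import cargo, at 374 ± 142, Xpo1, the main protein exportin, at 243 ± 39.0, Ipo5 at 219 ± 64.2 and Kpna2, an importin alpha adaptor, at 215 ± 55.5. The ranges of mean ± SD of Xpo1, Ipo5 and Kpna2 overlapped, and differences between these genes within replicates were not tested. Nup62 (162 ± 70.7), Nup85 of the Y-shaped scaffold (130 ± 29.8) and Nup93 of the inner ring (115 ± 37.5) were the highest nucleoporins. At the low end stood Nup35 at 17.7 ± 2.76, Xpo7 at 15.7 ± 4.60, Ipo8 at 12.8 ± 2.76 and Nup210l at 0.81 ± 0.20.

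No member passed the test for a change in whole-cell level during labeling. From 20 to 60 min (replicates 3 and 4) and from 60 to 120 min (replicates 5 and 6), 0 of 43 members and 0 (0%) of 16858 genes passed edgeR's quasi-likelihood test, where a call needed a log2 change over 0.5 in size with an adjusted p below 0.05, and DESeq2 also called 0. At an unadjusted p under 0.05 there were 0 members in either step, with 4.47% and 0.623% of all genes. The members' median changes were −0.01 and 0.15 (log2). The second value rested on replicate 5, as it was −0.02 without replicate 5 and 0.31 without replicate 6. The step from 60 to 120 min used the whole-cell libraries of replicate 6, whose shares of new RNA stood against their labels. The absence of calls in this step therefore does not show that levels were stable. Between 20 and 60 min the labeled dose also differs, so time and dose cannot be told apart in that step.

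Nup210 was the member with the highest read counts in the membrane fraction relative to the cytosol, and the inner-ring gene Nup155 was next. Nup210 was at 35.5, 41.1, 15.4, 16.9, 16.4 and 19.8 TPM in the membrane fraction of replicates 1 to 6. In the cytosol it was at 11.0, 9.37, 1.32, 2.32, 3.28 and 3.70 TPM. The groups did not overlap. The membrane over cytosol ratio of these TPM values was 3.23, 4.39, 11.7, 7.28, 5.01 and 5.35, and the ratio of the means was 4.69. In edgeR, on counts summed per replicate and fraction, Nup210 was higher in the membrane fraction by 2.81 ± 0.47 (log2, SE) with a Benjamini-Hochberg adjusted p of 2.17e-05. Within replicates 1 and 2, 3 and 4, and 5 and 6, the difference was 2.45, 3.42 and 2.68.

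Nup155, a scaffold protein that binds membranes but does not cross them, was at 23.4, 26.9, 31.9, 31.6, 15.4 and 19.4 TPM in the membrane fraction. In the cytosol it was at 20.0, 19.6, 8.15, 13.0, 10.5 and 12.7 TPM. Its ratio was above 1 in all 6 replicates, from 1.17 to 3.92, but the groups overlapped, since 2 cytosolic values were above the lowest membrane value. The edgeR difference was 1.26 ± 0.19 (log2, adjusted p 6.24e-06), and 0.88, 1.84 and 0.90 within the 3 pairs of replicates.

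**Figure D1:**
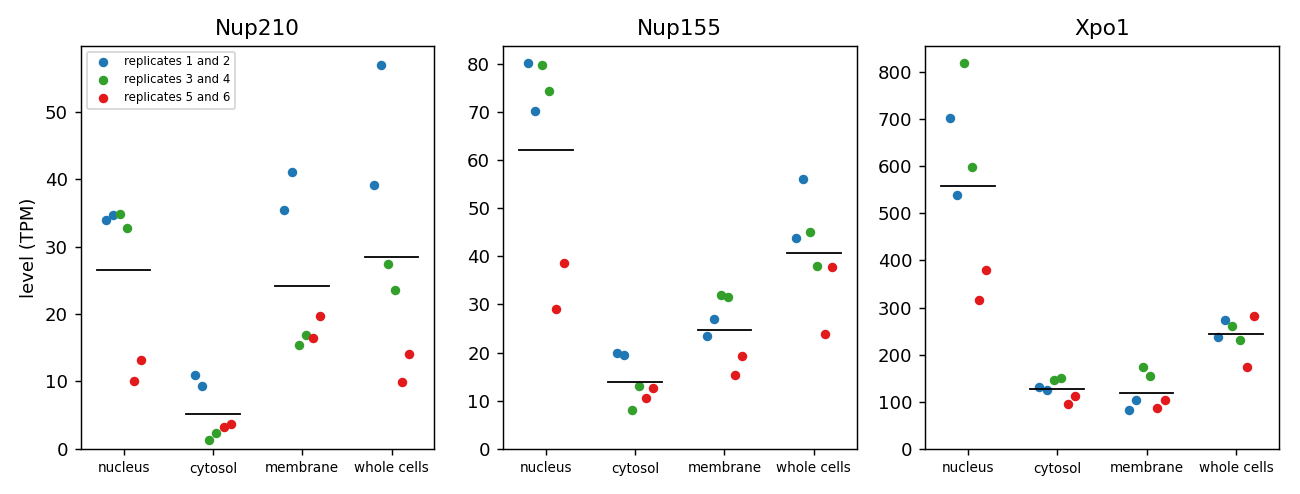
Levels (TPM) of Nup210, Nup155 and Xpo1 in the 4 fractions, with 1 point per replicate, coloured by pair of replicates, and the mean over 6 replicates as a line. Nup210 was lowest in the cytosol (1.32 to 11.0 TPM) and had means of 24.2 to 28.5 TPM in the other 3 fractions, whereas Xpo1 was highest in the nucleus.

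Few other members differed between the membrane fraction and the cytosol. In edgeR, 5 of 43 members (11.6%) were called between membrane and cytosol, against 30.0% of 19040 genes. Nup210 and Nup155 were the 2 higher members (21.1% of all genes were higher). The 3 lower members (8.86% of all genes) were Kpna6 (−0.57 ± 0.14, adjusted p 0.00244), the channel gene Nup54 (−0.52 ± 0.18, 0.026) and Nup62cl (−0.70 ± 0.27, 0.0436). With library size as the only scaling, which moved the median of all genes from −0.14 to −0.45, 2 members were higher and 20 lower (18.8% and 34.3% of all genes). Nup210, Nup155 and Kpna6 were called under each alternative scaling, filter, block and left-out replicate, and Nup54 and Nup62cl were not.

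By the ratio of mean TPM values, 40 of 42 members measured (95.2%) were below 1.5, Nup155 was at 1.77 and Nup210 at 4.69, against 79.1% of 11814 protein-coding genes below 1.5 and 16.2% at 3 or more. The median member was at 0.671 and the median gene at 0.661. Nup210l was too low to be placed by this ratio, and in edgeR it was at −0.04 ± 0.26 (adjusted p 0.916) between membrane and cytosol. Among the comparison list, the other membrane proteins of the pore stood with Nup210: Ndc1 by 3.65, Tmem33 by 3.44 and Pom121 by 3.00 (log2, all adjusted p below 0.05 in edgeR). They were the 3 higher of 22 genes, and 5 were lower, namely Tpr (−1.40), Nupl1 (−0.67), Seh1l (−0.61), Rcc1 (−0.55) and Sec13 (−0.52).

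Nup210 was then set against the 19 nucleoporins other than itself and Nup210l. Its log2 membrane over cytosol value exceeded their median by 2.66, 2.99, 3.88, 3.21, 2.87 and 2.94 in replicates 1 to 6. The mean difference was 3.09 ± 0.43 (SD, n = 6), and a two-sided exact permutation test gave p = 0.03125, the smallest that 6 replicates allow. Nup210 was above all 19 in each replicate, as the highest of them lay at 0.39 to 2.08 and Nup210 at 1.85 to 3.66.

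In the nucleus relative to the cytosol, 16 of 43 members (37.2%) were called by edgeR, against 59.0% of genes. The 6 higher members (30.9% of all genes) were Nup210 (1.83 ± 0.45), Nup155 (1.60 ± 0.20), Xpo1 (1.58 ± 0.15), Nup153 of the nuclear basket (1.41 ± 0.23), Nup210l (1.13 ± 0.26) and Nup98 (0.92 ± 0.16), all log2. They were called in every alternative run for this comparison.

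Xpo1 was at 703, 538, 819, 598, 316 and 381 TPM in the nucleus of replicates 1 to 6. In the cytosol it was at 131, 126, 146, 151, 95.6 and 113 TPM. The lowest nuclear value was above the highest cytosolic value, and the nuclear over cytosolic ratio ran from 3.31 to 5.62. Nup153 had ratios of 2.98, 3.12, 6.23, 4.84, 3.01 and 3.26, and Nup210 had 3.09, 3.70, 26.5, 14.2, 3.06 and 3.56. Replicates 3 and 4 thus gave the highest ratios for both genes, and for Nup210 this went with its lowest cytosolic levels. Within the 3 pairs of replicates the Nup210 difference was 1.39, 3.77 and 1.68 (log2).

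The 10 lower members (28.1% of all genes) included the channel genes Nup62 (−0.80 ± 0.17) and Nup54 (−0.67 ± 0.18), the Y-complex genes Nup43 (−1.18 ± 0.24) and Nup37 (−0.78 ± 0.19), the nuclear export receptors Xpo7 (−0.83 ± 0.17) and Xpot (−0.53 ± 0.13) and the lowest, Nup62cl (−1.62 ± 0.27). The remaining 3 were Tnpo3, Nup35 and Ipo5, between −0.61 and −0.51, and no importin alpha was called. The split between directions depended on the scaling and on single replicates. By library size alone, which moved the median of all genes from −0.01 to 0.35, 14 members were higher (39.9% of all genes) and 2, Nup43 and Nup62cl, were lower (15.8%). DESeq2 called 10 higher and 6 lower (35.7% and 23.3% of all genes), with the median of all genes at 0.15. The split also moved with single replicates, to 10 higher and 5 lower without replicate 1, 10 and 4 without replicate 2, and 10 and 6 without replicate 5. Of all genes, 36.8% and 18.2%, 36.4% and 17.9%, and 33.7% and 23.1% were then higher and lower. On the comparison list 8 of 22 genes were higher, led by Pom121 (3.61) and Ranbp2 (3.40), and 9 were lower, among them Ranbp1 (−1.73), the Ran importer Nutf2 (−1.66) and Ran (−1.43).

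**Figure D2:**
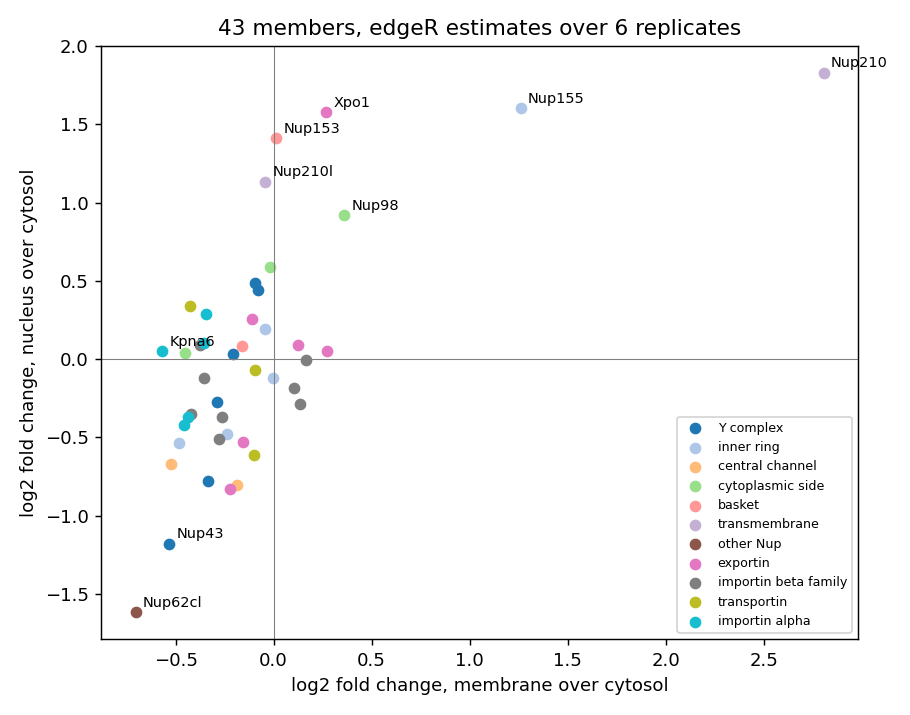
Each point is 1 of 43 members, coloured by role, with its edgeR log2 difference between membrane and cytosol on the x axis and between nucleus and cytosol on the y axis. Nup210 (2.81 and 1.83) and Nup155 (1.26 and 1.60) lie to the upper right, and Xpo1, Nup153 and Nup98 lie high on the y axis near 0 on the x axis.

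The share of new exon RNA was below that of the median gene for most members. The members' median share was below the median of all genes in 72 of 72 libraries, at 0.597 to 0.961 of it (median 0.787). For the test, each replicate was taken at its longest labeling time used, which is 30, 60 and 120 min for the 3 pairs of replicates, and log2 shares (with 0.005 added) were centred on the median gene of the library. In limma, with Benjamini-Hochberg adjustment over all genes, 7 members were higher and 17 lower in whole cells, against 28.0% and 28.2% of genes (56.2% in all). Without replicate 6 the counts were 8 and 16 (26.3% and 25.5% of genes), and the members' median in whole cells was −0.33. The cytosol gave 5 higher and 20 lower members (29.8% and 30.6% of genes, 60.5% in all), the membrane fraction 6 and 22 (29.7% and 30.0%, 59.7% in all), and the nucleus 3 and 14 (23.1% and 24.3%, 47.4% in all). The members' median relative shares were −0.36, −0.41, −0.52 and −0.27 in whole cells, cytosol, membrane fraction and nucleus, and those of all genes −0.07, −0.07, −0.08 and −0.06.

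Nup62, which forms the barrier of the central channel, had the highest relative share of new RNA of all members in each fraction. In whole cells it was 0.124 and 0.130 at 15 min and 0.306 and 0.316 at 60 min in replicates 3 and 4, and 0.764 and 0.394 at 120 min in replicates 5 and 6, the last in the library that stood against its label. In the cytosol Nup62 reached 0.818 and 0.821 at 120 min. Its relative share was 1.49 ± 0.20 in whole cells (log2, SE, adjusted p 0.00052 by limma) and 1.69 ± 0.20 in the cytosol, and it was above the median gene in all 6 replicates of each. Nup62 overlaps Il4i1 on the same strand.

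At the other end stood Ipo4, an importin of ribosomal proteins and histones, and Nup85. Nup85 in the cytosol had shares of 0.0105 and 0.0175 at 60 min in replicates 3 and 4, and of 0.135 and 0.119 at 120 min in replicates 5 and 6. Ipo4 in the cytosol had 0.0104 and 0.00936 at 60 min, and 0.0927 and 0.0834 at 120 min. At up to 40 min both were between 0.00446 and 0.0166 in the cytosol, and as no unlabeled library was used the background share was not measured. The cytosolic relative share was −1.87 ± 0.19 for Nup85 and −2.17 ± 0.19 for Ipo4, with an adjusted p of 0.000313 for each by limma.

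Roles in the pore differed in these counts, and the genes of a role are given here by how many were called in the cytosol, where 29.8% of all genes were higher and 30.6% lower. Of the members listed for the Y complex, the outer scaffold, 0 of 6 were higher and 4 lower (Nup37, Nup85, Nup107 and Nup133). Of the inner ring, 0 of 5 were higher and 3 lower (Nup93 at −1.44, Nup205 at −1.36 and Nup188 at −1.23). The basket genes Nup50 (0.72 ± 0.16) and Nup153 (1.13 ± 0.13) were both higher, as were Nup62 and Nup98 (0.99 ± 0.17). Nup88 and Nup214 of the cytoplasmic side were lower. Among receptors, 6 of 8 of the importin beta family and 3 of 6 exportins were lower and none was higher, and of 3 transportins Tnpo3 (−0.72) was lower. Nup62cl was lower too (−1.58), and neither transmembrane member was called. Of 5 importin alphas, Kpna2 was higher (0.87 ± 0.14) and none was lower. Differences between roles were not tested. On the comparison list 5 of 22 genes were higher, with Nxt1, a partner of the mRNA exporter Nxf1, at 1.33, and 9 were lower, with Aaas at −1.72.

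**Figure D3:**
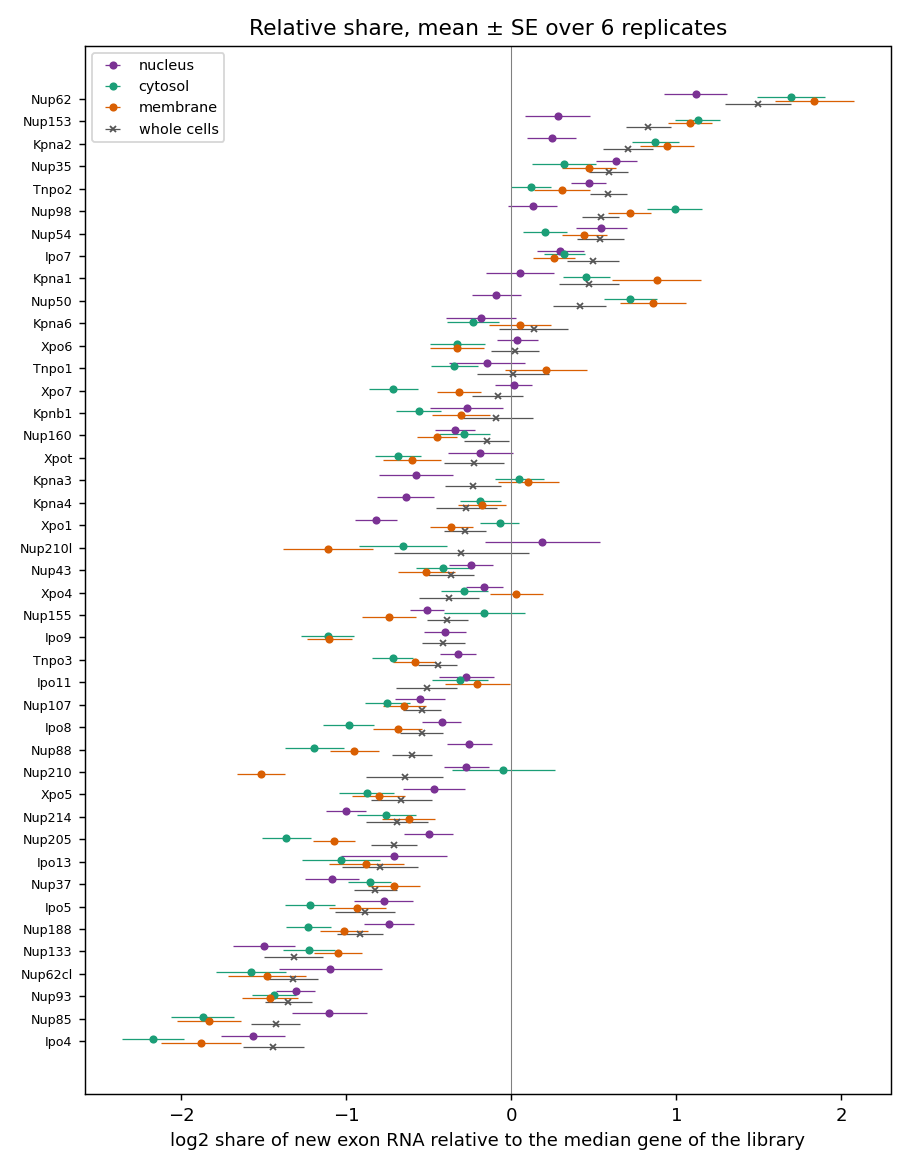
The log2 share of new exon RNA relative to the median gene of the library (x axis) for 43 members, ordered by the whole-cell value, as mean ± SE over 6 replicates in each of 4 fractions. Nup62 and Nup153 are at the top and Ipo4, Nup85 and Nup93 at the bottom, and most members lie left of 0.

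Between nucleus and cytosol of the same culture, the share of new RNA was higher in the nucleus for 29 of 43 members (67.4%) and lower for 0, against 50.8% of 12376 genes in either direction, 50.1% higher and 0.606% lower (limma). All 43 differences were above 0, as were 90.9% of those of all genes, with a median of 1.19 (log2) against 0.91 for all genes. All 8 genes of the importin beta family, all 3 transportins and 5 of 6 exportins were called, the exception being Xpo1. Of the Y complex 4 of 6, of the inner ring 4 of 5, of the importin alphas 1 of 5 and of the basket 0 of 2 were called. With each library centred on its median, 7 members were above the typical gene, led by Nup88 (0.95), Nup205 (0.88) and Nup210l (0.86), and 6 were below it, namely Nup98 (−0.84), Nup50 (−0.80), Xpo1 (−0.73), Kpna2 (−0.61), Kpna3 (−0.61) and Nup62 (−0.56), where 6.70% and 15.8% of all genes were called above and below. The 6 lower members were thus near the share of all genes. With fractions compared unpaired, over replicates of different labeling times, 0 members were called in limma, and 0.00808% of genes, all lower.

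The difference varied between the pairs of replicates, which were taken at different times. Nup205 had a nuclear minus cytosolic log2 share of 1.97 and 2.28 at 30 min, 2.74 and 2.02 at 60 min, and 1.13 and 1.00 at 120 min. Nup155 had 1.81 and 2.08 at 30 min, 0.71 and 0.07 at 60 min, and −0.38 and −0.42 at 120 min. The first kept a higher nuclear share throughout and the second did not, and 11 members, Nup210 among them, were positive in both replicates at 30 min and negative in both at 120 min. These 2 times come from different pairs of replicates and labeled doses, so time, pair and dose cannot be told apart between them. Within replicates 5 and 6, at the same labeled dose, Nup155 was at −0.39 and −0.07 at 60 min, against −0.38 and −0.42 at 120 min, and 10 of the 11 members, all but Nup210, were already below 0 in both replicates at 60 min. In replicates 3 and 4 at 60 min, 5 of the 11 were above 0 in both. The sign thus differed between pairs at the same time of 60 min. The written methods and the labels differ on the dose of replicates 3 and 4 at this time. Within replicates 5 and 6, 21 of 43 members were lower at 120 than at 60 min in both, and within replicates 3 and 4, 27 of 43 were lower at 60 than at 20 min in both, where the labeled dose also differs. These within-pair values were chosen after the values above were seen, and were not tested. The same counts were not made over all genes. The median share over all genes was 0.0819 and 0.103 in the nucleus at 30 min, against 0.0307 and 0.0290 in the cytosol. In replicates 5 and 6 it was 0.257 and 0.223 against 0.206 and 0.181 at 60 min. At 120 min it was 0.445 and 0.413 against 0.372 and 0.367. The nuclear excess was thus smaller in replicates 5 and 6 for the median gene as well.

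Nup210 was the 1 member called between membrane and cytosol in its share of new RNA, against 4.28% of 12236 genes (4.09% lower). Its share was lower in the membrane fraction. At 120 min the share was 0.642 and 0.621 in the cytosol of replicates 5 and 6, 0.416 and 0.394 in the nucleus, and 0.136 and 0.114 in the membrane fraction. At 60 min in replicates 3 and 4 it was 0.117 and 0.105 in the cytosol, 0.213 and 0.216 in the nucleus, and 0.0238 and 0.0228 in the membrane fraction. The few Nup210 mRNAs of the cytosol were thus mostly new by 120 min, while those of the membrane fraction, where its level was higher, were mostly old.

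The difference in log2 share was −0.38, −0.68, −2.09, −1.99, −2.20 and −2.40 in replicates 1 to 6, with a mean of −1.62 ± 0.31 (SE, adjusted p 0.0328 by limma). This call was lost without any 1 of replicates 3 to 6, with adjusted p from 0.0896 to 0.111, and with a T minimum of 100, centring or the mean over all times, with 0.0565, 0.0609 and 0.156. Ndc1 (−1.43) and Pom121 (−1.45) were the 2 called of the 22 genes of the comparison list, so Tmem33 was not called. Among the ER genes chosen as a fraction check, Pdia4 (−2.29), Tfrc (−1.74), Hsp90b1 (−1.72) and Sec61a1 (−1.64) were called. The other ER genes chosen, Hspa5 and Calr, are not given for this comparison. Nup155 stood at −0.73 ± 0.18 (adjusted p 0.0831), and the median member at −0.02.

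**Figure D4:**
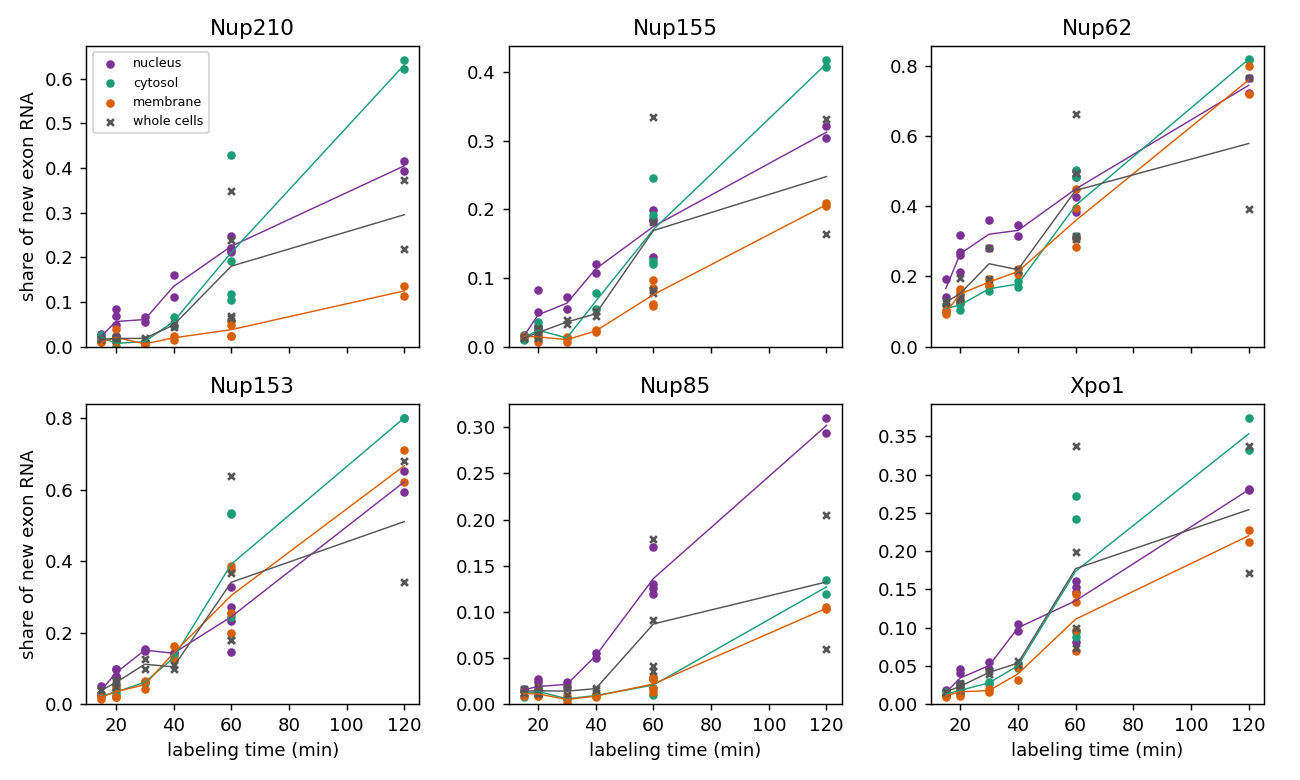
Share of new exon RNA (y axis) against labeling time in min (x axis) for 6 members, with 1 point per library and lines through the means, in nucleus, cytosol, membrane fraction and whole cells (crosses). The Nup210 panel shows the cytosol at 0.642 and 0.621 and the membrane fraction at 0.136 and 0.114 at 120 min, and the whole-cell points at 60 and 120 min include replicate 6.

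Introns, which mark RNA that is not yet spliced, carried a higher share of new RNA than exons in the nucleus for 43 of 43 members, where 94.0% of 10785 genes were called and 93.9% were higher (limma). The median log2 difference was 2.11 for members and 1.64 for all genes. Nup85 introns had shares of 0.576 and 0.532 at 60 min in replicates 3 and 4, against 0.130 and 0.119 in its exons. Nup62 introns were at 0.397 and 0.410 at 15 min and at 1.07 and 1.09 at 60 min, where a value above 1 can arise since the conversion rate is an estimate for a whole library. Relative to the typical gene, by centring, 17 members were higher and 2 lower, namely Tnpo2 (−0.69) and Nup62 (−0.58), against 22.8% and 25.2% of all genes.

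In the amount of intron to exon sequence in the nucleus, as a ratio of T counts, the median member stood at 0.293 and the median protein-coding gene at 0.366. Nup85 had 0.851 ± 0.234 (SD, n = 6), above 83.0% of genes, and Xpo6 and Xpo4 had 0.798 ± 0.269 and 0.724 ± 0.150. At the low end Kpna6 had 0.0495 ± 0.0195, Nup50 had 0.0640 ± 0.0216 and Kpnb1 had 0.0649 ± 0.0332. Nup35, which overlaps Dusp19, had 1.25 ± 0.507.

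Exons near the end of a long gene gained new RNA earlier than exons near its start. Poly(A) RNA holds finished transcripts, in which the 3′ end is the last part to be made. Of the members longer than 60 kb, 12 had at least 400 T counts in all 3 distance classes in every nuclear library. At 30 min the share in exons under 10 kb from the 3′ end was above that in exons over 30 kb away in both replicates for 12 of 12, with medians of 0.124 and 0.0102. At 60 min in replicates 5 and 6 the medians were 0.254 and 0.134, with 10 of 12 higher in both, and at 120 min they were 0.404 and 0.325, with 9 of 12. Replicates 3 and 4 gave 9 of 12 at 60 min (0.242 and 0.106). In the libraries set aside they gave 6 of 12 at 120 min (0.328 and 0.310). Other long genes were not counted in this way. The paper reports that the labeled nuclear share fell with distance from the 3′ end over grouped exons. The gradient is thus not particular to members.

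Nup210, 103.8 kb long, had shares of 0.0837 and 0.107 near its 3′ end and of 0.0181 and 0.00146 beyond 30 kb at 30 min. Ipo11, an importin gene of 142.5 kb, had 0.2285 and 0.194 against 0.0104 and 0.00875. By 120 min Nup210 had 0.443 and 0.405 against 0.334 and 0.258, so that the gap had narrowed. Nup93 is of similar length (102.7 kb) but had low shares in every class. The exon shares of long members above are averages over such classes.

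**Figure D5:**
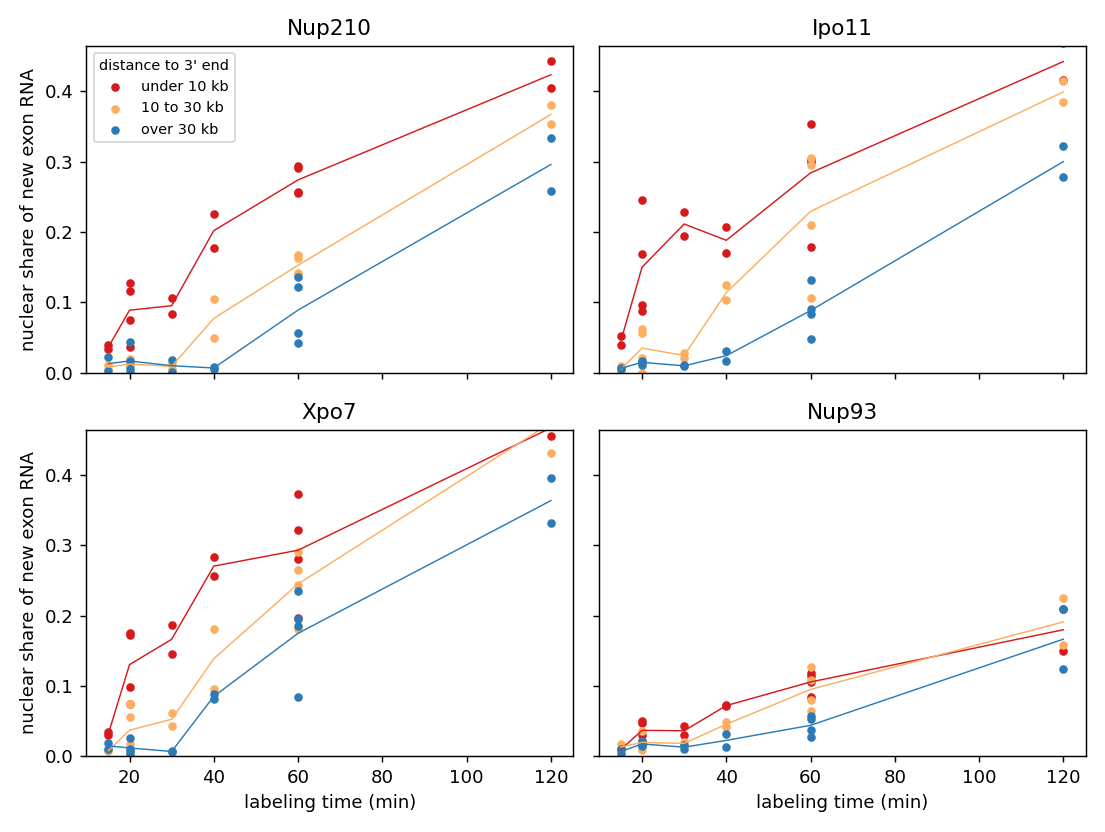
Nuclear share of new exon RNA (y axis) against labeling time in min (x axis) for 4 long members, in exons under 10 kb, 10 to 30 kb and over 30 kb from the 3′ end, with 1 point per library and lines through the means. In Nup210, Ipo11 and Xpo7 the exons near the 3′ end rise first, and the classes approach each other by 120 min.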

How the data were processed

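RNA of 4 fractions of E14TG2a cells was measured in 72 libraries, grouped by fraction, labeling time and replicate from the labels. The authors aligned reads with STAR 2.7.6 to mm10 (GRCm38) and deposited raw read counts per gene made with HTSeq 0.11.1, without normalization. A second deposited file per library held T and T2C counts for exons, genes and introns, without known variants. The conversion rate was deposited as a fraction per library, estimated by the authors with a binomial mixture model, and the deposited ratio (T2C over T, over this rate) was recomputed here from the counts. RSEM 1.3.3 is named in the submitters' processing notes. Lines that name no gene were left out of library sizes: reads outside genes came to 4.61 to 54.3% of the reads on genes of a library (median 14.8%), ambiguous reads to 1.59 to 2.25% and reads not uniquely aligned to 30.8 to 59.4%.

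The 64 libraries used were summed to 24, 1 per replicate (1 to 6) and fraction, and fitted in R 4.3.3 with the quasi-likelihood test of edgeR 4.0.16 (TMM scaling, filterByExpr, Benjamini-Hochberg adjustment over all genes tested). Shares at the longest labeling time of each replicate were tested with limma 3.58.1 on log2(share + 0.005) for genes whose T count reached 400 in all libraries of the comparison, within replicates for differences between fractions. A log2 ratio with this added constant understates the difference of low shares. A call took a log2 difference over 0.5 in size and an adjusted p below 0.05. All 43 members passed these filters in every comparison. TPM values were counts per exon length of the annotation (GENCODE M21), scaled to the same total in each library. DESeq2 1.42.0 was an alternative, and the edgeR and limma fits were tested on simulated data. Molecular identifiers were not used, so precision is given by the spread between replicates. In the share tests this spread also holds the differences in labeling time and labeled dose between pairs of replicates.

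Replicates were separately passaged cultures. Fractions with the same number were taken to come from the same culture. Deviations from the group means correlated by 0.177 to 0.708 within a number (median 0.531) and by a median of −0.179 between numbers. As labeling times differ between pairs of replicates, this correlation cannot tell a shared culture from shared labeling times. The reasoning went from read counts, which place each mRNA in a fraction, to T2C shares, which give how much of it was made during labeling. Levels in a fraction are relative to the other RNA of that fraction.

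All 43 members could be named, by role, and the members, roles and comparison lists were chosen with earlier results of these data known. Alternatives covered scaling, filters, tool, added constant, T minimum, pairing and left-out replicates, and 2 alternatives (values within a labeling time, and leaving out Nup210l and Nup35) were chosen after seeing the data. Unlabeled and 180 min samples were not analysed here.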

Additional observations from a re-analysis of the deposited data

Results flagged for a closer look

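In 189 sets of 6 replicate values, 6 had 1 replicate far from the others by Dixon's test, at which chance alone marks about 1 set in 20. For Nup54 the log2 membrane over cytosol value was −1.20 in replicate 1. For Tnpo1 the nuclear intron over exon share was 3.30 (log2) in replicate 4. The relative share of Ipo4 was −0.669 in the membrane fraction of replicate 1 and −2.295 in whole cells of replicate 2. In the membrane fraction, Nup155 was at −1.45 in replicate 2 and Nup37 at −0.0838 in replicate 1.

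For 11 members the nuclear minus cytosolic log2 share was above 0 in both replicates at 30 min and below 0 in both at 120 min, and this difference between times, which is also one between pairs of replicates, was not tested. In replicates 5 and 6, 10 of the 11 were already below 0 in both at 60 min. These counts were not made over all genes, whose median nuclear excess was also smaller in replicates 5 and 6. The means at 120 min were −0.63 for Nup210, −0.40 for Nup155, −0.36 for Nup153, −0.33 for Xpo1, −0.18 for Kpna3, −0.16 for Kpna2, −0.16 for Nup98, −0.14 for Nup62, −0.14 for Nup214, −0.067 for Nup50 and −0.039 for Kpna4. At 30 min the same genes were at 2.03, 1.95, 1.23, 0.75, 1.15, 0.84, 0.74, 0.93, 1.61, 0.52 and 1.28.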

How the results depend on the processing

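Between membrane and cytosol, 22 members were called with library size alone, 9 with DESeq2, 3 with no low-count filter and 4 with the replicate block, against 5, and 3 to 9 when 1 replicate was left out. All genes were higher and lower by 18.8% and 34.3% with library size alone and 21.1% and 13.9% with DESeq2. They were so by 12.2% and 2.41% with no filter and 23.2% and 11.7% with the block, against 21.1% and 8.86%. Without replicates 2, 3 or 4 the count was 3 (20%, 21.3% and 20.7% of all genes higher, 6.87%, 6.25% and 6.58% lower). Without replicate 5 it was 9 (19.3% and 15.7%). Between nucleus and cytosol, 16 were called with the replicate block, as without it, and 14 to 17 without 1 replicate, but the directions moved from 6 higher and 10 lower to 7 and 9 with the block and 10 and 4 without replicate 2. The shares of all genes moved from 30.9% and 28.1% to 34.4% and 30.7%, and 36.4% and 17.9%. Leaving out 1 replicate gave 28.7 to 36.8% of genes higher and 17.9 to 27.4% lower. Whole-cell levels gave 0 members and 0% of all genes with the block. Nup210 exceeded the soluble nucleoporins by 2.93 to 3.18 without 1 replicate, with an exact permutation p of 0.0625, the smallest for 5 replicates. For the nuclear over cytosolic share, 18 to 30 members were called without 1 replicate (18 without replicate 3), 36 with the pair of replicates as a term, 31 with a T minimum of 2000, 13 with centring and 0 with no replicate block, against 29. Of all genes, 20.2 to 55.2% were higher without 1 replicate (20.2% without replicate 3). This was 65.3% with the pair as a term and 63.7% with a T minimum of 2000, against 50.1%. Centring gave 6.70% higher and 15.8% lower, and no replicate block 0% and 0.00808%. For the membrane over cytosolic share, 0 were called with a T minimum of 100, the mean over all times, centring or no replicate block, 2 with a T minimum of 2000 or the pair of replicates as a term, and 0 to 2 without 1 replicate (2 without replicate 1, 0 without replicate 3, 4, 5 or 6), against 1. The share of all genes called lower was 2.64%, 6.44%, 2.32% and 0% in the first settings named. It was 5.71% with a T minimum of 2000, 8.41% with the pair as a term and 1.38 to 2.85% without 1 replicate, against 4.09%. At most 1.63% were higher. For nuclear introns over exons, 19 were called with centring, against 43, with 22.8% of all genes higher and 25.2% lower, against 93.9% and 0.158%. Of 2552 alternative values over 188 called differences of single members, 2294 stayed called or, where no test was run, kept their direction, 246 were no longer called and 12 changed sign. With centring, Nup160 was at −0.044 and Ipo7 at −0.0087 in the nuclear over cytosolic share, and in nuclear introns over exons Nup210l was at −0.98, Tnpo2 −0.69, Nup62 −0.58, Nup54 −0.46, Nup35 −0.43, Nup153 −0.12 and Xpo6 −0.0145. Centring subtracts the median gene of each library. Within replicates 1 and 2, Nup35 (0.19) and Nup54 (0.033) changed sign between nucleus and cytosol, and Ipo7 (−0.0196) did so in the nuclear over cytosolic share within 120 min. The cause of the other changes was not tested. Depth limits Nup210l, and since no unlabeled library was used the background share was not measured.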
